A study of Mus musculus with 12 samples.

Results

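The mRNA of Dlg4 and of 8 further genes for proteins of the excitatory postsynaptic density was examined in mouse hippocampus. The 9 members were taken by symbol from the deposited expected-count table, which lists 22236 genes, and all 9 were among the 15853 genes whose counts were high enough to test. They are the membrane-associated guanylate kinases Dlg4, Dlg2 and Dlg3, the adaptor genes Dlgap1 and Dlgap3, the deep scaffold genes Shank1, Shank2 and Shank3, and the kinase gene Camk2a. The study itself named Dlg4 from these libraries, and the rest were listed with earlier results of these data known, so their direction in these libraries is not independent evidence.

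Males of the strains C57BL/6J (B6) and DBA/2J (D2), aged 3 to 5 months, were injected with AAV9, an adeno-associated virus, and killed at least 6 weeks later. The knockdown (KD) virus carried AAV9-shRNA-Hp1bp3, a short hairpin RNA against heterochromatin protein 1 binding protein 3, a chromatin protein. The control (Ctrl) virus carried a scrambled hairpin, so every mouse of both strains had received virus. There were 3 libraries for each of B6 Ctrl, B6 KD, D2 Ctrl and D2 KD, 12 in all, each from the homogenate of a whole hippocampus although the virus was delivered to its dorsal part. In such bulk tissue, fewer cells of a type and less mRNA per cell cannot be told apart.

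Excitatory synapses on dendritic spines hold glutamate receptors in place with a layered protein scaffold. Dlg4 encodes PSD-95, whose PDZ domains bind the tails of receptors and adhesion proteins at the membrane, and Dlg2 (PSD-93) and Dlg3 (SAP102) encode close relatives of it. The Dlgap (GKAP or SAPAP) proteins bind the guanylate kinase domain of the Dlg proteins and link them to the Shank proteins, which in turn bind Homer and the actin cytoskeleton. Camk2a encodes the alpha subunit of calcium/calmodulin-dependent protein kinase II, a kinase abundant in the forebrain postsynaptic density and required for long-term potentiation.

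All 9 are protein-coding genes on the + strand in GENCODE M21 (build GRCm38). Dlg4 spans chr11:70016942-70047522, Dlg2 chr7:90476672-92449247 and Dlg3 chrX:100767722-100818410. Dlgap1 spans chr17:69969073-70821413 and Dlgap3 chr4:127169204-127237022, and the Shank genes span chr7:44310253-44360572 (Shank1), chr7:144001928-144424494 (Shank2) and chr15:89499623-89560261 (Shank3). Exons of 1700008O03Rik on the opposite strand share 339 bases with Shank1, those of Gm15609 share 271 bases with Shank3, and those of AC079441.1 share 92 with Dlgap1. On the same strand, exons of Gm45159 share 75 bases and those of Gm45131 share 150 bases with Dlg2. Because strandedness of the counting is not stated, reads in the opposite-strand overlaps cannot be assigned to either gene. Strand could not separate reads in the same-strand overlaps of Dlg2.

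The sequences before annotated start sites are shown for a few members because these genes are described together below and differ widely in base composition. RefSeq windows on build GRCm38.p6 were found for 6 of the 9 members, 12 windows in all, and 250 bases before each start were searched on both strands. The windows not shown include those of Dlg3 and Dlgap3. Bases inside any annotated exon were left out of what is printed, and capitals mark the GC box GGGCGG or its reverse complement.
Dlg4, window 3, chr11:70023732-70023919, + strand: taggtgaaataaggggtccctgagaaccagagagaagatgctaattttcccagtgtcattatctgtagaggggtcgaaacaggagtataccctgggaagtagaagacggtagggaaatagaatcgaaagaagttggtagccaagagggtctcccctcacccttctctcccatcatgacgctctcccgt
Dlgap1, window 1, chr17:69968823-69969072, + strand: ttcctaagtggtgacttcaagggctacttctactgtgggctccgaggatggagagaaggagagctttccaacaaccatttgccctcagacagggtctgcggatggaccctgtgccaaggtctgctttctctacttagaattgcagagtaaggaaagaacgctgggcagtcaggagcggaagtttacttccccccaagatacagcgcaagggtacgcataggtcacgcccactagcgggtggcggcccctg
Shank3, chr15:89499358-89499607, + strand: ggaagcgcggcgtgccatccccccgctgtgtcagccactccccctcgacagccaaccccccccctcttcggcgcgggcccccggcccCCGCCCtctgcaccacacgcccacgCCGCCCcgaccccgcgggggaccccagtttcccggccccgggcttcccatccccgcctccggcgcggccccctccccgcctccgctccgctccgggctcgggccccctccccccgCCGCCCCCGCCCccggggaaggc
Dlg2, window 2, chr7:92062144-92062393, + strand: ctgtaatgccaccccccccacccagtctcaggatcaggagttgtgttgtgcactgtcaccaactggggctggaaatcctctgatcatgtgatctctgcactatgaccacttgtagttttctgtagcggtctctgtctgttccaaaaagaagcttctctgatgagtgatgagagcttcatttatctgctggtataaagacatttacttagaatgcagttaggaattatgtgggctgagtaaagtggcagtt

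The Shank3 window had a GC content of 82.4%, higher than 99.4% of the 32851 windows of all genes, and held the GC box 4 times. Window 3 of Dlg4 had a GC content of 56.8%, window 1 of Dlgap1 55.2% and window 2 of Dlg2 45.6%, against a median of 52.4% over all windows. Windows 1 and 2 of Dlg4 had 47.2% and 68.0%, window 2 of Dlgap1 52.4%, and windows 1 and 3 of Dlg2 45.2% and 42.8%. Window 3 of Dlg4 and window 2 of Dlg2 lie inside the spans of these genes, before internal start sites. The GC box was in 3 of the 12 member windows, against 32.7% of all windows. In window 3 of Dlg4 it lay in the part that overlaps an annotated exon, which is not printed. The core TGACG of the cAMP response element was in 2 of the 12, window 3 of Dlg4 and window 1 of Dlg3, against 17.8% of all windows. The TATAAA box was in 1 of the 12, window 2 of Dlg2, against 12.4%. These matches describe letters only, in the reference sequence, which is that of B6.

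Levels are given as the authors' normalized count, a read count divided by 1 size factor per library. The libraries held between 18.2 M and 39.4 M expected counts each (median 32.4 M). Hp1bp3, the target, had normalized counts of 9372, 8826 and 9348 in B6 Ctrl and 5539, 5429 and 7633 in B6 KD, and of 6871, 6504 and 7002 in D2 Ctrl and 5337, 4878 and 6941 in D2 KD. The library labelled D2 KD 3 therefore lay within the D2 Ctrl range, and the D2 and interaction results are given with and without it. In edgeR, KD shifted the Hp1bp3 level by a log2 fold change of -0.54 ± 0.15 (SE) in B6 (adjusted p = 0.0760). The D2 estimate was -0.25 ± 0.15 (adjusted p = 1.0), or -0.41 with the library labelled D2 KD 3 left out (adjusted p = 0.554). DESeq2 called the B6 difference (-0.57, adjusted p = 0.0083). The score of 9 neuronal markers, a mean of log2(CPM + 1), ran from 8.70 to 9.12 over the 12 libraries, and none of these markers was at 0 in any library. The score of 8 choroid plexus markers lay between 2.31 and 3.08 in 5 libraries of all 4 groups and between 5.94 and 6.85 in the other 7.

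Camk2a had by far the highest mRNA level of the 9 and Dlg4 the next highest. Per kilobase of the principal transcript, the normalized count of Camk2a was 22781 ± 3926 (SD over the 12 libraries) and that of Dlg4 was 6286 ± 701. The ranges of these genes overlapped neither each other nor that of the next gene. Dlgap1 followed at 3774 ± 506 per kilobase and Shank1 at 2349 ± 305. Below them came Dlgap3 at 1841 ± 288, Dlg3 at 1506 ± 123, Shank3 at 1258 ± 178, Dlg2 at 1194 ± 505 and Shank2 at 793 ± 164. This order pools strains that differ in Dlg2. In B6 Ctrl, Dlg2 was at 862 ± 334 per kilobase (SD, n = 3), below Shank2 at 1003 ± 122, and in D2 Ctrl it was at 1686 ± 427, above Dlg3 at 1478 ± 150 and Shank3 at 1353 ± 100. From Dlgap1 downward each gene's range over the libraries overlapped that of its neighbour in this order. Dlg2 varied most, with a 4.34-fold spread between its lowest and highest library, and Dlg3 least, with 1.28-fold.

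Within its family each of Dlg4, Dlgap1, Shank1 and Camk2a supplied the largest share of the level per kilobase. Dlg4 made up 66.5% of the summed level of Dlg1 to Dlg4 in B6 Ctrl and 62.4% in D2 Ctrl. Dlgap1 made up 48.8% of the Dlgap1 to Dlgap4 total in B6 Ctrl, and Shank1 made up 53.2% of the Shank total. Camk2a made up 66.9% of the Camk2 total in B6 Ctrl and 64.4% in B6 KD. The share of Dlg2 was 8.4% in B6 Ctrl against 15.5% in D2 Ctrl.

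**Figure D1:**
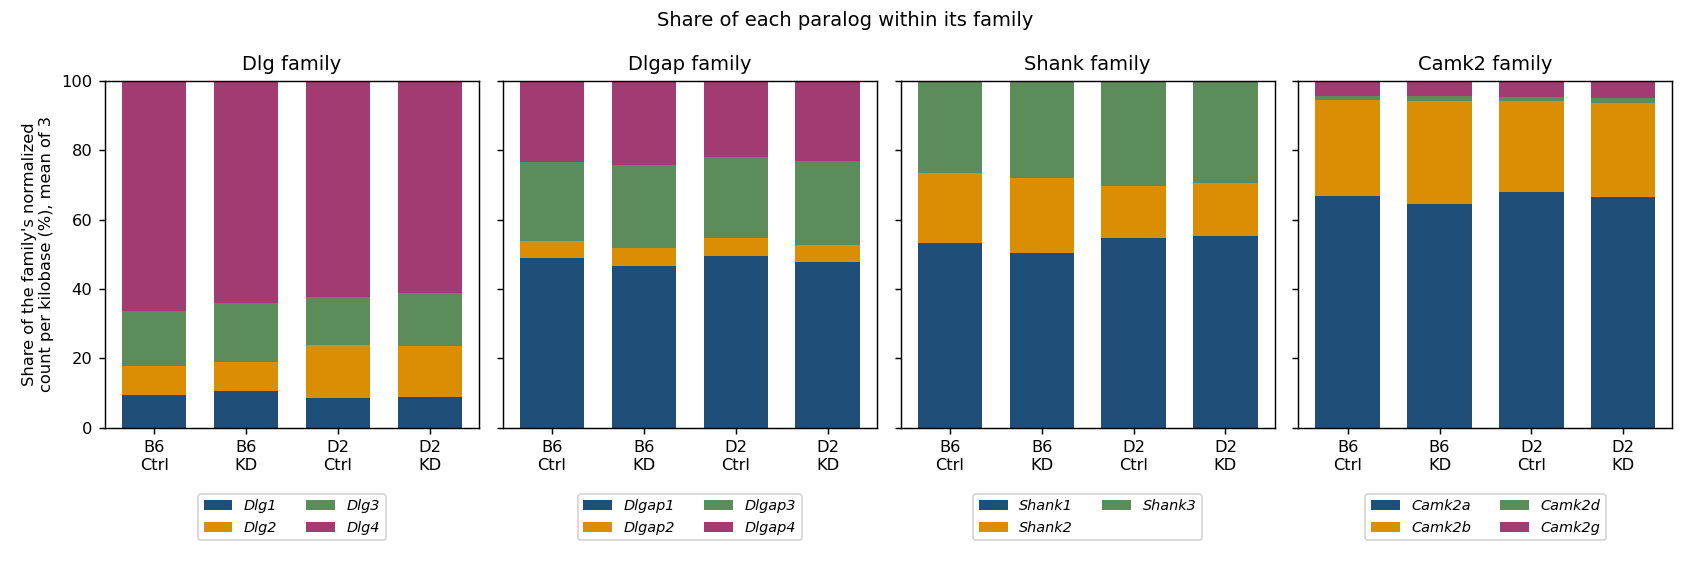
Share of each paralog in its family's normalized count per kilobase (%, mean of 3 libraries) in the 4 groups, for the Dlg, Dlgap, Shank and Camk2 families. The Dlg2 segment is taller in both D2 groups, at 15.5% and 14.8%, than in the B6 groups, at 8.4% and 8.6%, and the Shank2 segment is shorter, at 15.2% against 20.2% and 21.6%.

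The first question was whether KD changed these mRNAs in B6. In B6 the estimates of all 9 members were below 0, with a median log2 fold change of -0.23, against a median of 0.0025 over all tested genes, of which 49.4% were below 0. None of the 9 passed an adjusted p of 0.05 in edgeR, where 2.64% of all genes were called and 0.877% were called lower. At an unadjusted p under 0.05, 4 members were lower (Dlg4, Dlgap1, Shank1 and Camk2a), against 8.72% of all genes. All 3 KD libraries lay below all 3 Ctrl libraries for 5 of the 9 members, Shank2 being the fifth, against 16.2% of all genes.

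Dlg4 had normalized counts of 26823, 21478 and 22754 in B6 Ctrl and 18848, 17696 and 20353 in B6 KD. Every KD library was below every Ctrl library, and the KD mean was 80.1% of the Ctrl mean. The log2 fold change was -0.30 ± 0.09 (SE), with an edgeR adjusted p of 0.108. DESeq2 called the same difference (-0.32, adjusted p = 0.0141) and limma-voom did not (adjusted p = 0.105). Over all 10 settings that kept every library the estimate stayed between -0.32 and -0.24, and DESeq2 was the only one of them to call it.

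Camk2a, the kinase gene, showed the largest difference of the members. Its normalized counts were 135632, 113993 and 125535 in B6 Ctrl and 95066, 81534 and 93854 in B6 KD. The lowest Ctrl library was well above the highest KD library. The log2 fold change was -0.45 ± 0.12 (adjusted p = 0.0727 in edgeR, 0.0060 in DESeq2).

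Among the Shank genes, Shank1 differed most. Its normalized counts were 29314, 23620 and 24746 in B6 Ctrl and 18965, 17713 and 21910 in B6 KD, without overlap. Its log2 fold change was -0.38 ± 0.11 (adjusted p = 0.0784 in edgeR, 0.0061 in DESeq2). Shank2, the largest of the Shank genes in genomic extent, had 10098, 7910 and 9034 in Ctrl and 7415, 7894 and 7403 in KD. The lowest Ctrl library was barely above the highest KD library, and the estimate was -0.23 ± 0.11 (adjusted p = 0.261). Shank3, whose loss causes Phelan-McDermid syndrome in humans, had 10198, 8569 and 9354 in Ctrl and 7549, 6448 and 9913 in KD. Its groups overlapped through B6 KD 3, and the estimate was -0.21 ± 0.16 (adjusted p = 0.493).

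Of the Dlgap adaptors, Dlgap1 had normalized counts of 22989, 21015 and 23634 in B6 Ctrl and 18495, 18868 and 14850 in B6 KD. All KD libraries were lower, and the log2 fold change was -0.35 ± 0.12 (adjusted p = 0.137 in edgeR, 0.0531 in DESeq2). Dlgap3 had 9988, 7455 and 7692 in Ctrl and 6213, 5834 and 9496 in KD. Here KD 3 exceeded 2 of the Ctrl libraries, and the estimate was -0.20 ± 0.18 (adjusted p = 0.584).

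The paralogs of Dlg4 differed less. Dlg3 had 7928, 7334 and 8138 in B6 Ctrl and 7003, 6470 and 7339 in B6 KD, groups that just overlapped, with an estimate of -0.15 ± 0.10 (adjusted p = 0.431). Dlg2 had 5145, 4873 and 9342 in Ctrl and 7031, 5780 and 3516 in KD. Its groups overlapped almost entirely, and its estimate of -0.23 ± 0.30 (adjusted p = 0.717) became 0.12 without B6 Ctrl 3.

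**Figure D2:**
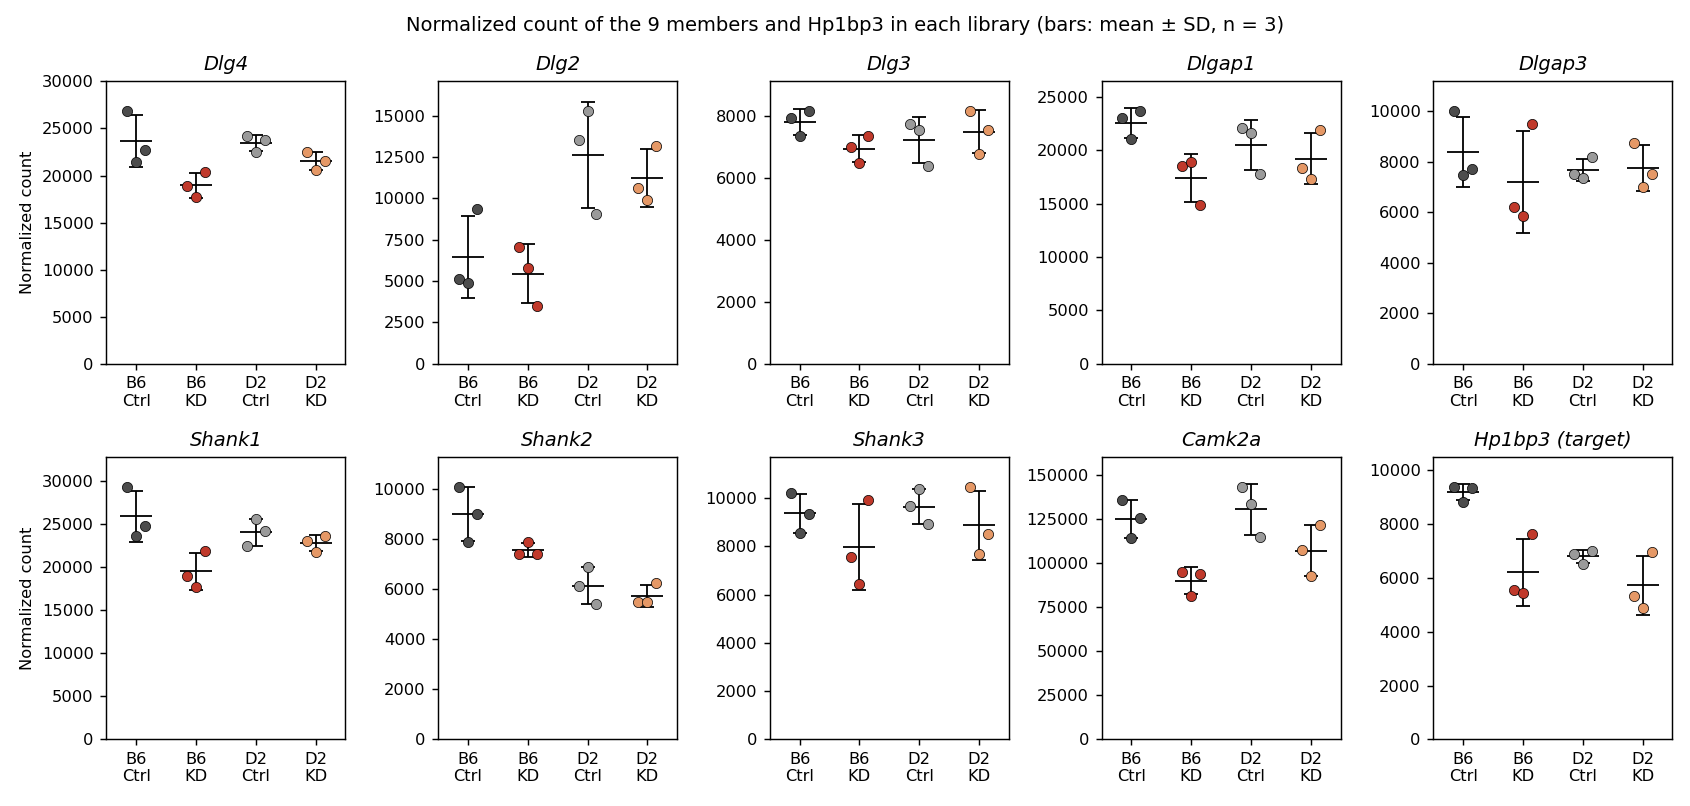
Normalized count of each member and of the target Hp1bp3 in every library, by strain and treatment, with the mean ± SD of each group (n = 3). In B6 the KD points of Dlg4, Dlgap1, Shank1, Shank2 and Camk2a lie below all Ctrl points, and in D2 this holds for Dlg4 alone.

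Several measured features moved with treatment in B6. The score of 10 interferon response genes was 2.21 to 2.64 in B6 Ctrl and 5.09 to 6.66 in B6 KD. All 10 were called higher, where edgeR called 279 of all 15853 genes higher in B6. The score of 7 microglia markers was 5.16 to 5.39 in Ctrl and 5.55 to 6.17 in KD, with 1 of the 7 called higher. All 7 estimates were above 0. At an unadjusted edgeR p under 0.05, 6 of the 7 were higher, where 3262 of all 15853 genes passed in either direction. The score of 7 astrocyte markers was 8.44 to 8.49 in Ctrl and 8.65 to 9.01 in KD, also without overlap, with 0 of 7 called, 3 higher and 1 lower at an unadjusted p under 0.05. Among them Gfap, an intermediate filament of astrocytes, had normalized counts of 16723 to 20850 in Ctrl and 34357 to 76728 in KD. Aldoc, another of the 7, went the other way, with its highest KD library at 19790 and its lowest Ctrl library at 20689. The estimates of 5 of the 7 were above 0 and those of 2 below, so the list did not rise as a whole. The neuronal marker score overlapped, at 8.94 to 9.09 in Ctrl and 8.70 to 9.09 in KD, with 0 of 9 called. At an unadjusted edgeR p under 0.05, 1 was lower, and 6 of the 9 estimates were below 0 and 3 above. For Rbfox3, Snap25 and Eno2 every KD library lay below every Ctrl library, against 16.2% of all genes, and the other markers overlapped. Rbfox3 had normalized counts of 7095 to 8641 in Ctrl and 4572 to 6112 in KD. The oligodendrocyte marker score overlapped, at 7.72 to 8.31 in Ctrl and 7.87 to 8.17 in KD. Choroid plexus markers were high in 1 of 3 Ctrl and 2 of 3 KD libraries. The part of the interferon, microglia and astrocyte genes in the differences above was not tested. With the neuronal score as a covariate the B6 estimate was -0.24 for Dlg4, -0.31 for Shank1, -0.38 for Camk2a and -0.40 for Dlgap1, and with the choroid plexus score it was -0.28, -0.40, -0.43 and -0.33 in the same order. With the neuronal score the estimates of Dlg3 (-0.055), Dlgap3 (-0.057) and Shank3 (-0.040) shrank, from -0.15, -0.20 and -0.21 without a covariate.

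The library B6 KD 3 had the highest Hp1bp3 of the B6 KD libraries and the lowest interferon score of them. Without it the B6 estimate was -0.39 for Dlg4 (adjusted p = 0.0600) and -0.51 for Shank1 (adjusted p = 0.0318), the only edgeR call of a member for KD in B6 when single libraries were left out. Without it the estimates of Dlgap3 (-0.49), Shank3 (-0.43) and Dlg3 (-0.22) were over 1.5 times larger and that of Dlg2 was -0.025.

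The same comparison in D2 gave smaller estimates. The median log2 fold change of the 9 members was -0.094, with 7 below 0, against 0.0041 over all genes. No member was called in D2, where 0% of all genes were called by edgeR (1 gene by DESeq2) and 452 genes had an unadjusted p under 0.05. That count of genes rested on single libraries, being 1236 without the library labelled D2 KD 3, 1019 without D2 Ctrl 3, 262 without D2 KD 1 and 247 without D2 Ctrl 1. All KD libraries lay below all Ctrl libraries for 1 of the 9 members, against 3.06% of all genes. Without the library labelled D2 KD 3 the members' median was -0.12 with 7 below 0, and the remaining KD libraries lay below all Ctrl libraries for 2 of the 9 (Dlg4 and Camk2a), against 10.3% of all genes.

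Dlg4, separated with all libraries, had normalized counts of 24178, 22545 and 23790 in D2 Ctrl and 22450, 20604 and 21594 in D2 KD. The groups nearly touched, and the KD mean was 91.7% of the Ctrl mean. The log2 fold change was -0.12 ± 0.09 (edgeR adjusted p = 1.0), and it was also -0.12 without the library labelled D2 KD 3.

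Camk2a again had the largest estimate. It had 143195, 133360 and 115046 in D2 Ctrl and 107202, 92881 and 121378 in D2 KD, where the library labelled D2 KD 3 was above the lowest Ctrl library. The log2 fold change was -0.28 ± 0.12 (unadjusted p = 0.0431, adjusted p = 1.0 in edgeR), and without that library it was -0.38 (adjusted p = 0.539). Shank1 (-0.08 ± 0.11), Shank2 (-0.09 ± 0.11), Shank3 (-0.12 ± 0.16), Dlgap1 (-0.09 ± 0.12) and Dlg2 (-0.16 ± 0.30) were each within about 1 SE of 0. Without the library labelled D2 KD 3, the estimates of Dlgap1 (-0.19), Dlg2 (-0.29) and Shank2 (-0.16) were over 1.5 times larger. Other libraries moved these small estimates as far: with 1 library left out, Dlgap1 ran from -0.19 to -0.025, Dlg2 from -0.35 to -0.0072, Shank1 from -0.14 to -0.032, Shank2 from -0.17 to -0.0068 and Shank3 from -0.26 to -0.024. The estimates of Dlg3 (0.05 ± 0.10) and Dlgap3 (0.01 ± 0.18) were above 0.

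The D2 interferon score was 2.53, 2.67 and 3.98 in Ctrl and 4.84, 5.21 and 3.01 in KD, in replicate order. All 10 estimates were above 0, with a median log2 fold change of 1.53, against 0.0041 over all genes. At an unadjusted edgeR p under 0.05, 9 of the 10 were higher, where 452 of all 15853 genes passed. After adjustment 0 of the 10 were called, as was 0% of all genes. The library labelled D2 KD 3 had the lowest score of the D2 KD libraries.

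**Figure D3:**
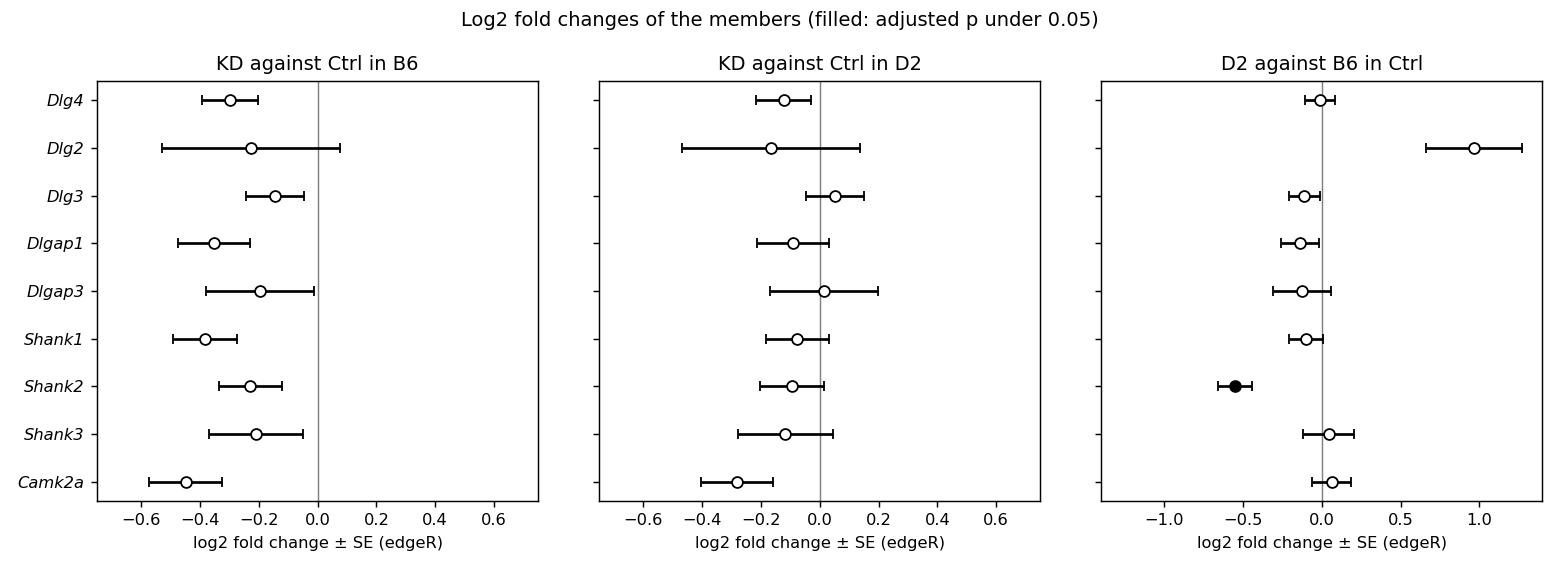
Log2 fold change ± SE (edgeR) of each member for the effect of KD within B6, the effect of KD within D2, and D2 against B6 under the control virus, with filled points for an adjusted p under 0.05. All 9 B6 points lie left of 0, the D2 points lie closer to 0, and Shank2 between strains is the only filled point.

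Averaged over strains, all 9 estimates were below 0, with a median of -0.20 against 0.0057 over all genes. edgeR called no member and 0% of all genes, although 3046 genes had an unadjusted p under 0.05. At that unadjusted level 4 members were lower, against 8.33% of all genes. They were Camk2a (-0.37 ± 0.09, adjusted p = 0.0685), Shank1 (-0.23 ± 0.08, adjusted p = 0.146), Dlgap1 (-0.22 ± 0.09, adjusted p = 0.205) and Dlg4 (-0.21 ± 0.07, adjusted p = 0.134). DESeq2 called Camk2a (adjusted p = 0.0018), Dlg4 (0.0210) and Shank1 (0.0332) lower, where it called 3.73% of all genes lower. The same 3 genes were those it called in B6, where it called 4.88% of all genes lower. Without the library labelled D2 KD 3, Camk2a passed in edgeR (-0.41, adjusted p = 0.0314), and it also passed without D2 Ctrl 3 (-0.41, adjusted p = 0.0492).

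Whether KD acted differently in the strains was tested with the interaction. Its 9 estimates were all above 0, from 0.06 ± 0.43 for Dlg2 to 0.31 ± 0.15 for Shank1, a sign that means a higher estimate in D2 than in B6. Of all genes 50.4% were below 0. The sign was not particular to the members: 35 of the 40 other postsynaptic genes described below and 7 of the 9 neuronal markers were also above 0. No member was called (smallest adjusted p 0.848, for Shank1). edgeR called 0% of all genes, with 937 at an unadjusted p under 0.05 (542 without B6 Ctrl 1 and 1580 without B6 KD 3). For Dlg4 the difference between strains was 0.17 ± 0.13 (adjusted p = 0.951) and for Camk2a 0.17 ± 0.17 (adjusted p = 0.969). With 1 library left out, the Dlg4 value ran from 0.095 (without B6 Ctrl 1) to 0.26 (without B6 Ctrl 2), and the Camk2a value from 0.071 (without the library labelled D2 KD 3) to 0.26 (without D2 KD 2). Without the library labelled D2 KD 3 the median of the 9 was 0.16 in place of 0.17, Shank1 was 0.28, and Dlg2 was -0.065, the 1 estimate then below 0. The smaller D2 values were therefore not shown to differ from those in B6.

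The strains were next compared under the control virus. Of the 9 members, 1 was called, where edgeR called 14.0% of all genes and 8.75% lower in D2. Libraries of the strains did not overlap for 1 member, against 31.6% of all genes.

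That member was Shank2, with normalized counts of 6153, 6900 and 5414 in D2 Ctrl against 10098, 7910 and 9034 in B6 Ctrl. Its log2 fold change was -0.55 ± 0.11 (edgeR adjusted p = 0.0049), a D2 mean of 68.3% of the B6 mean. It was called in all 10 settings with every library and in all 12 with 1 library left out, between -0.64 and -0.46. The D2 KD libraries, which did not enter this contrast, had 5517, 5485 and 6257, all below the B6 KD libraries.

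Dlg2 went the other way. It had 13549, 15263 and 9074 in D2 Ctrl against 5145, 4873 and 9342 in B6 Ctrl, so that the lowest D2 library was just below the highest B6 library. The log2 fold change was 0.97 ± 0.31, a D2 mean of 196% of the B6 mean, which edgeR did not call (adjusted p = 0.0619). The difference was called by DESeq2 (adjusted p = 0.0124), with the GC offset (adjusted p = 0.0473), and in edgeR without B6 Ctrl 3 (1.34, adjusted p = 0.0152), B6 KD 3 (0.0390) or D2 Ctrl 3 (0.0414). It was not called in the other 8 settings with every library or the other 9 with 1 library left out, where the adjusted p reached 0.179 with the total count covariate and 0.226 without B6 Ctrl 1. In KD, Dlg2 was 10650, 9880 and 13195 in D2, all above the 7031, 5780 and 3516 of B6.

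The other 7 members did not differ beyond the spread. Dlg4 was nearly level between strains, at 23505 ± 853 in D2 Ctrl and 23685 ± 2791 in B6 Ctrl (SD, n = 3), with a log2 fold change of -0.01 ± 0.09 (adjusted p = 0.972). Camk2a (0.06 ± 0.12), Shank3 (0.04 ± 0.16), Shank1 (-0.10 ± 0.11), Dlg3 (-0.11 ± 0.10), Dlgap3 (-0.12 ± 0.18) and Dlgap1 (-0.14 ± 0.12) had adjusted p-values of 0.587 or more. Each strain's reads had been aligned to that strain's own reference, and a part of the differing references in these values was not tested.

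The members did not all vary together from library to library. Over the 12 libraries, which share strain and treatment groups, Pearson's r of log2(CPM + 1) with Dlg4 was 0.90 for Shank1, 0.85 for Camk2a, 0.76 for Shank3 and 0.72 for Dlgap3. It was 0.48 for Dlg3, 0.45 for Dlgap1, 0.21 for Dlg2 and 0.05 for Shank2. Among all 36 pairs of members the median r was 0.45, the lowest was -0.58, and 32 were above 0. Hp1bp3 had an r of 0.57 with Dlg4. Among the 10395 genes whose mean CPM reached 10, those most like Dlg4 outside the list were Neurl1a (r 0.96), Srrt (0.96), Cdk5r2 (0.95), Rundc3a (0.95) and Ppp2r5d (0.95). In B6, Cdk5r2 (-0.50, adjusted p = 0.0443), an activator of the kinase Cdk5, and Ppp2r5d (-0.32, adjusted p = 0.0479), a regulatory subunit of protein phosphatase 2A, were called lower by edgeR, against 0.877% of all genes. These genes were chosen for their likeness to Dlg4 over the same libraries, so their direction in B6 follows from the choice.

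Likeness to Dlg4 ran with the base composition of the transcripts. Centred within the 4 groups, r with Dlg4 was 0.87 for Dlgap3, 0.77 for Shank1 and 0.70 for Shank3, whose principal transcripts have a GC content of 63.9%, 61.4% and 61.7%. It was -0.22 for Dlgap1 and -0.40 for Dlg2, at 46.8% and 44.5%. Dlg4 itself has a GC content of 57.9%. Over the 8 other members the within-group r and GC content correlated at 0.94, a description over genes measured in the same libraries. With r taken over the 12 libraries without centring, the value was 0.61. The libraries differed in how level ran with GC content, from -0.10 in D2 Ctrl 2 and B6 KD 1 to 0.11 in D2 Ctrl 3, as the log2 level at 58% minus that at 45% GC.

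An offset for GC content fitted in each library narrowed the spread of the within-group r. That r still ran with GC content, at a correlation of 0.82 over the 8 members. Without centring, r with the offset did not follow GC content. From the highest GC content downward it was 0.46 for Dlgap3, 0.66 for Shank3, 0.85 for Shank1 and 0.09 for Shank2. Further down it was 0.91 for Camk2a, 0.58 for Dlg3, 0.66 for Dlgap1 and 0.40 for Dlg2. With the offset the within-group r was 0.67 for Dlgap3, 0.69 for Camk2a, 0.66 for Shank1, 0.20 for Dlgap1 and 0.08 for Dlg2. The B6 estimates with the offset were -0.26 for Dlg4, -0.45 for Camk2a, -0.30 for Shank1 and -0.37 for Dlgap1. Those of Dlgap3 (-0.09) and Shank3 (-0.13) were smaller by more than 1.5 times.

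**Figure D4:**
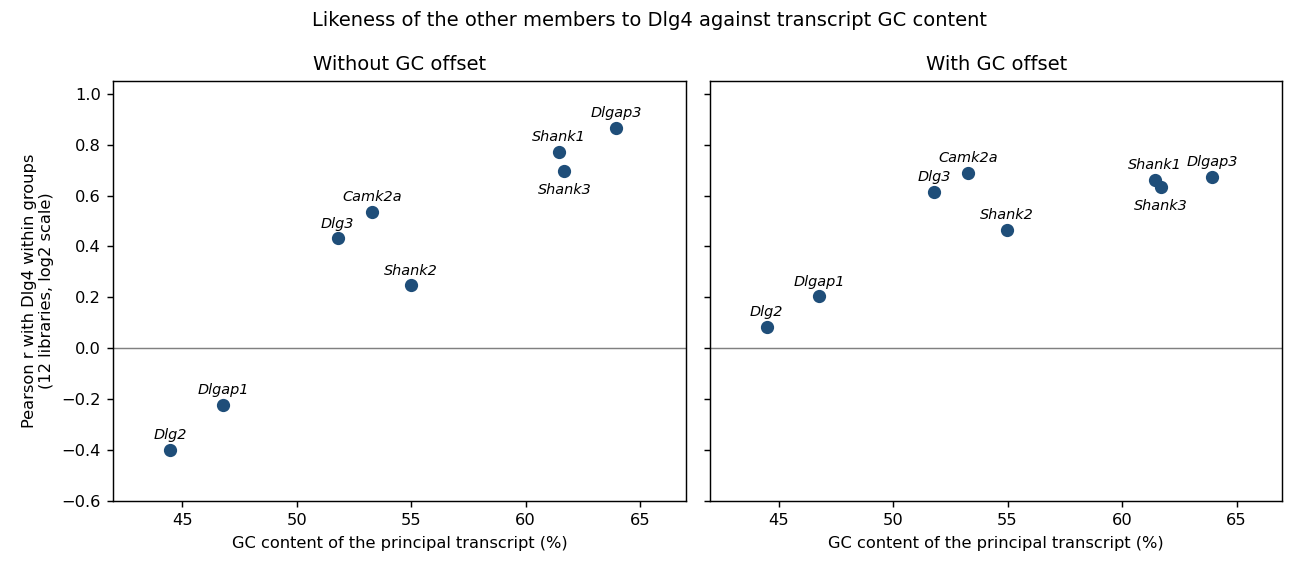
Pearson r with Dlg4 within groups (12 libraries, log2 scale) against the GC content of the principal transcript (%) for the other 8 members, without and with the GC offset. The points climb from -0.40 for Dlg2 to 0.87 for Dlgap3 without the offset and span 0.08 to 0.69 with it.

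Other genes of the postsynaptic density were taken from lists, 40 of them tested. In B6, 34 of the 40 estimates were below 0, with a median of -0.22, where 49.4% of all genes were below 0. edgeR called 3 of the 40, all lower, against 0.877% of all genes called lower, and DESeq2 called 6, all lower, against 4.88%. edgeR called none in any other comparison. At an unadjusted p under 0.05, 10 were lower and 0 higher in B6, where 3262 of all 15853 genes passed. Averaged over strains 11 were lower and 1 higher, where 3046 of all genes passed. In D2 it was 1, lower (452 of all genes), for the interaction 2, above 0 (937), and between strains 3, lower in D2 (3684). The 3 genes called in B6 belong to a list of 23 tested genes. It holds binding partners of Dlg4 and signalling enzymes of the postsynaptic density, and 22 of its estimates were below 0 in B6.

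Mpp2, a membrane-associated guanylate kinase that binds Dlg4, had normalized counts of 6348, 5477 and 5614 in B6 Ctrl and 4233, 4229 and 3593 in B6 KD. It fell by 0.51 ± 0.10 on the log2 scale (adjusted p = 0.0361). Begain, a binding partner of the Dlg4 guanylate kinase domain, had 3225, 2464 and 2649 in Ctrl and 1974, 2081 and 2038 in KD. It fell by 0.43 ± 0.09 (adjusted p = 0.0440). Iqsec2, an exchange factor for Arf GTPases, had 9744, 8421 and 9076 in Ctrl and 6978, 7046 and 6603 in KD. It fell by 0.38 ± 0.08 (adjusted p = 0.0436). All 3 were separated without overlap, but the calls were close to the threshold. Of the 10 settings with every library, 7 called Mpp2, 6 Begain and 5 Iqsec2. Of the 12 fits with 1 library left out, 6 called Mpp2, 5 Begain and 5 Iqsec2, with adjusted p-values of up to 0.178, 0.178 and 0.189. The covariates for total count, choroid plexus score and neuronal score each lost all 3, with adjusted p-values from 0.0536 to 0.0893. In D2 the estimates were -0.10 for Mpp2, -0.13 for Begain and -0.19 for Iqsec2, each with an adjusted p of 1.0.

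The largest B6 estimates in the lists were not called by edgeR. Camk2n1, an inhibitor of the kinase encoded by Camk2a, was at -0.74 ± 0.23 (adjusted p = 0.106), and DESeq2 called it (-0.76, adjusted p = 0.0244). Homer2, a scaffold that binds Shank proteins, was at -0.67 ± 0.36 (adjusted p = 0.316), and at -0.42 without B6 KD 3. Above 0 were Zdhhc2, a palmitoyl transferase for Dlg4 (0.46 ± 0.22, adjusted p = 0.262), and Homer3 (0.37 ± 0.41, adjusted p = 0.646). Without B6 KD 3 the estimate was 0.29 for Zdhhc2 and -0.21 for Homer3.

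The scaffold paralogs that are not members gave 7 of 9 B6 estimates below 0. Camk2g was at -0.34 ± 0.16, Camk2b at -0.27 ± 0.18, Dlgap2 at -0.24 ± 0.33, Camk2d at -0.22 ± 0.26, Dlgap4 at -0.22 ± 0.11 and Dlg1 at -0.09 ± 0.14. Homer1 was at 0.27 ± 0.34, and at -0.39 without B6 KD 3. With 1 library left out, Camk2g ran from -0.51 to -0.22, Camk2b from -0.46 to -0.17, Camk2d from -0.36 to -0.0084, Dlg1 from -0.17 to -0.044 and Dlgap2 from -0.47 to 0.021. In the main edgeR fit the adjusted p-values of these paralogs were 0.257 or more. That of Camk2g fell to 0.131 in edgeR with 1 library left out and to 0.0971 over the 10 settings with every library. Dlgap4 passed in edgeR without B6 KD 3 (-0.38, adjusted p = 0.0333). Of 5 palmitoylation enzymes for Dlg4, 4 estimates were below 0 with a median of -0.06, and none was called. Of 3 genes of the inhibitory postsynapse, 1 estimate was below 0 with a median of 0.03, and none was called.

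**Figure D5:**
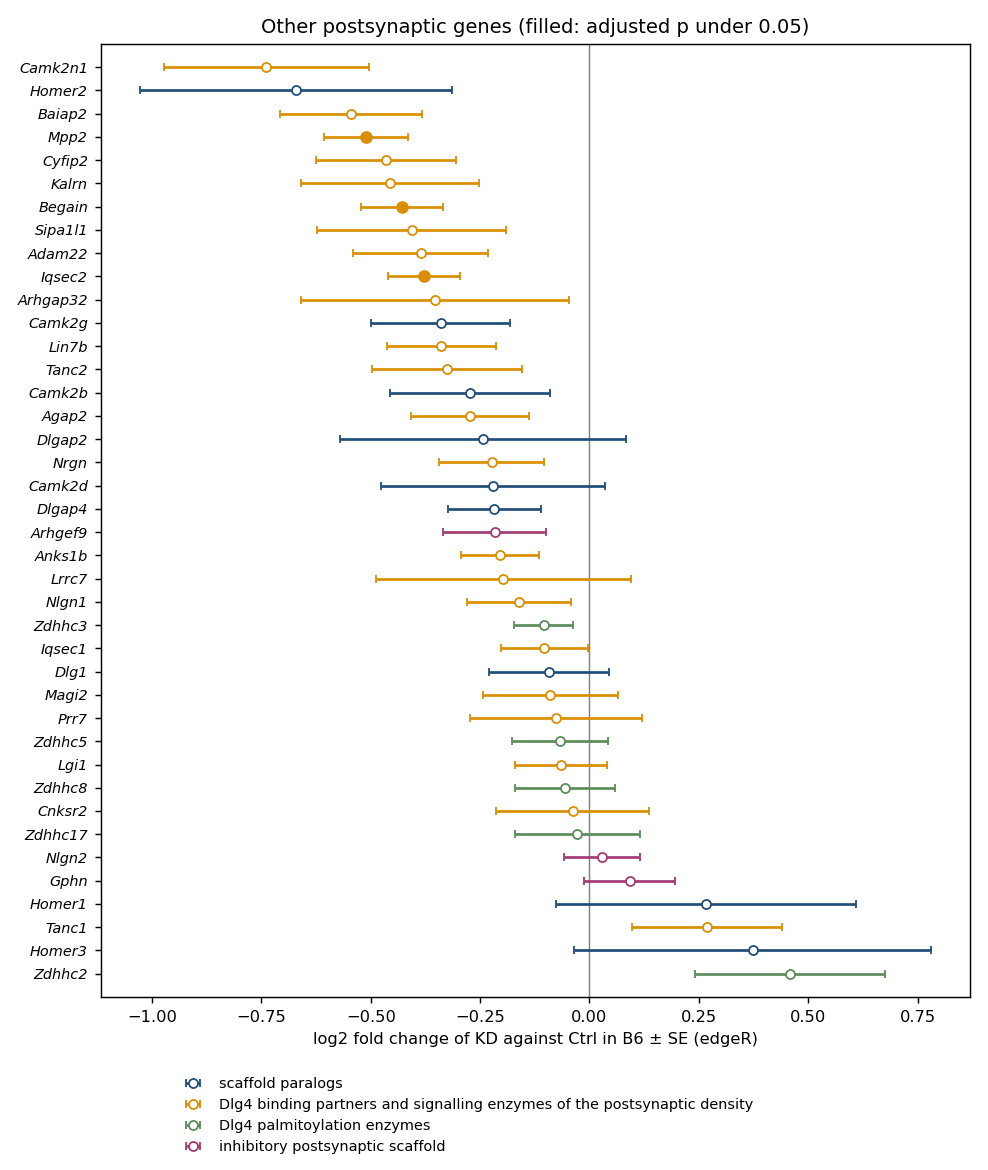
Log2 fold change ± SE (edgeR) of KD against Ctrl in B6 for the 40 other postsynaptic genes, coloured by list, with filled points for an adjusted p under 0.05. The points of 34 genes lie left of 0, and Mpp2, Begain and Iqsec2 are filled.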

How the data were processed

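Hippocampal mRNA libraries of 12 mice, 3 per strain and treatment, were grouped by the strain and treatment labels. Replicate numbers follow deposit order and pair nothing. The labels give each library as a separate mouse. The authors joined the reads of 2 sequencing runs where available, aligned those of each mouse to its own strain's genome, and estimated expression with RSEM 1.2.12 and Bowtie2 2.2.0 (build GRCm38, annotation release not given in the sources used here, strandedness not stated). The expected counts the authors deposited (RSEM, gene level) are not normalized and were rounded here. The authors' deposited signal is the DESeq2 normalized count, equal to the expected count without its decimals divided by 1 size factor per library (0.584 to 1.35); 100% of 266508 values returned whole reads within 0.01. Spreadsheet dates in 27 gene symbols were replaced through the Ensembl identifiers.

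Genes were tested with edgeR 4.0.16 (R 4.3.3; quasi-likelihood F-test, TMM, robust, filterByExpr, 4 group means), and Benjamini-Hochberg adjusted p-values under 0.05 over all 15853 genes were called. Standard errors were derived from the estimate and its F statistic and are approximate. DESeq2 1.42.0 and limma 3.58.1 (limma-voom) were alternatives. Lengths, GC content and positions come from GENCODE M21. Promoter sequences come from RefSeq (GRCm38.p6).

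The members and lists were chosen with earlier results of these data known. Named were the members, Hp1bp3, the genes most like Dlg4, and listed postsynaptic genes that were called, had the 2 largest B6 estimates in each direction, or are Dlg, Dlgap, Homer or Camk2 paralogs. The alternatives were other tools, size factors, filters, quasi-likelihood methods, covariates, a GC offset (GC known for 99.46% of genes) and leaving out each library. The truncated counts, the correlations after the GC offset and the summaries of the members without the library labelled D2 KD 3 were added after the data were seen. The fits were tested on simulated counts with the same spread for every gene and changes in B6 KD only. That simulation held no difference in tissue or knockdown between libraries of a group, so it cannot speak to calls that rest on single libraries.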

Additional observations from a re-analysis of the deposited data

How the results depend on the processing

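Direction and call were kept for most values, but counts of called genes depended on the tool and on single libraries. Averaged over strains, 0 genes were called by edgeR, against 1241 with DESeq2, 15 with the newer quasi-likelihood method, 84 with the neuronal score covariate, 15 with the GC offset, and 0 to 799 with 1 library left out, the highest without the library labelled D2 KD 3. Members called were 0, against 3 with DESeq2 and 0 to 1 with 1 library left out. In B6, 418 genes were called, against 1688 with DESeq2, 0 with the total count, choroid plexus score or neuronal score covariate (3068, 2836 and 3039 genes at an unadjusted p under 0.05), and 0 to 790 with 1 library left out. Without B6 Ctrl 1, B6 Ctrl 3, B6 KD 1, B6 KD 2 or D2 Ctrl 1 the count was 0, and without B6 KD 3 it was 790. Members called in B6 were 0, against 3 with DESeq2 and 0 to 1 with 1 library left out. In D2, 0 genes were called, against 1 with DESeq2 and 0 to 1 with 1 library left out, and no setting called a member. For the interaction 0 genes were called, against 11 with DESeq2. Between strains 1 member was called, against 2 with DESeq2, 2 with the GC offset and 1 to 2 with 1 library left out.

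Estimates that changed sign were all uncalled. In D2, Dlgap3 was -0.097 with the total count covariate and -0.054 with the neuronal score. For the interaction, Dlg2 was -0.025 with the choroid plexus score and Shank3 -0.14 with the neuronal score. Between strains, Dlg4 was 0.060 with the total count covariate, 0.0029 with the choroid plexus score and 0.0059 with the GC offset, and Dlgap3 was 0.0036 with the total count covariate. With 1 library left out, the B6 estimates ran from -0.48 to 0.12 for Dlg2, -0.47 to 0.021 for Dlgap2, -0.39 to 0.48 for Homer1 and -0.21 to 0.69 for Homer3. Those in D2 ran from -0.025 to 0.12 for Dlg3 and -0.092 to 0.079 for Dlgap3. The interaction ran from -0.29 to 0.31 for Dlg2 and -0.024 to 0.30 for Shank3. The strain difference ran from -0.081 to 0.089 for Dlg4, -0.21 to 0.020 for Dlgap3, -0.024 to 0.11 for Shank3 and -0.0063 to 0.14 for Camk2a. The cause of these changes was not tested. No paired analysis was possible because the replicate numbers follow deposit order only. With 3 libraries a group, the SE of the members' B6 estimates ran from 0.095 for Dlg4 to 0.30 for Dlg2, which limits what can be called.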
